A study of Mus musculus with 6 samples.

Results

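The 9 genes described here encode components and receptors of complement: C1qa, C1qb and C1qc (the 3 chains of C1q), C4b, C3, Cfb (factor B), Cfp (properdin), and C3ar1 and C5ar1 (the receptors of the fragments C3a and C5a). They were taken by symbol from the gene rows of the 3 deposited expression matrices, where each symbol had exactly 1 row in every pool, and they are 9 of the 30406 genes listed in all pools. Single CD11b+ cells were profiled by CITE-seq, a droplet assay that counts a cell's transcripts and, through antibodies with DNA tags, some of its surface proteins. CD11b, the product of Itgam, is itself a chain of a receptor for C3 fragments and is carried by myeloid cells. The cells came from brains of C57BL/6 mice aged 12 weeks that were flushed with cold saline through the heart and then dissociated with enzymes. For tumor-bearing mice the hemisphere with the glioma was taken, and for controls the whole brain.

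The design names 6 groups of 3 samples each: female and male mice at 14 days (tumor D14) or 21 days (tumor D21) after implantation, and female and male mice without tumor (control). Each of 3 pools held 1 sample of every group, marked with 1 of 6 hashtag antibodies. The labels do not say which hashtag marked which group, so each is named here by its pool and hashtag, none is assigned to a group, and the same number in another pool may mark another group. The sources used here do not say whether a sample is 1 animal or several, or which tumor cells were implanted. P-values therefore measure the spread between these samples, part of which may be technical.

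Complement is a chain of blood and tissue proteins that mark surfaces for removal. In the classical pathway C1q binds a target and leads to cleavage of C4 and then C3, whereas in the alternative pathway factor B forms the C3-cleaving enzyme and properdin steadies it. The small fragments C3a and C5a act on cells through their receptors, and C3 fragments left on a surface are bound by myeloid integrins. In the brain, microglia are a main source of C1q, and C1q, C4 and C3 take part in the removal of synapses during development.

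The 3 mRNA libraries held 71510276 to 107880924 UMIs (distinct molecules counted) in 11010 to 13925 barcodes. The median was 4451 to 8129 UMIs per barcode, and 82 to 103 barcodes of a pool recurred in another pool. A barcode was given to a hashtag when that hashtag made up at least 80% of its hashtag counts. Limits on genes, UMIs and mitochondrial UMIs were applied first. Of the barcodes within them this kept 10908 of 13766 in pool 1 (79.2%) and 9353 of 10688 in pool 2 (87.5%). In pool 3 it kept only 1896 of 11760 (16.1%), so pool 3 gives the least precise values. Clusters were named from marker genes, none of them complement genes, and complement genes took no part in the clustering. The names mean microglia-like (10280 cells), macrophage-like (4815), monocyte-like (3338), dendritic-like (890) and border macrophage-like (133). Summed counts of a class and hashed sample were used where it held at least 20 cells. This left 11 macrophage, 11 monocyte and 10 dendritic sums, every one of them under hashtags 3 to 6, 1 border macrophage sum (24 cells, 157530 UMIs) and 18 microglia sums, with 259317 to 13321366 UMIs in each sum besides the border one. The marker lists given next are those that named the clusters, so high values of a class in its own list follow from the naming. The macrophage list summed to 5819 to 14863 CPM (counts scaled to 1e6 UMIs per sum) in macrophages and 77.0 to 1778 CPM in microglia. The microglia list summed to 597 to 1463 CPM in macrophages and 13370 to 32303 CPM in microglia. Macrophages and monocytes were less far apart, with the macrophage list overlapping (4474 to 8883 CPM in monocytes) and the monocyte list at 1339 to 7391 CPM in macrophages and 8738 to 13467 CPM in monocytes.

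Sequence upstream of the annotated start was at hand for 6 of the 9 genes (RefSeq, GRCm38.p6, 250 bases before the start, all 3 windows below on the minus strand and written 5′ to 3′). The windows of C1qb, C1qc and C3 are shown because they held a searched motif, given in capitals. A further reason is that C1q and C3 ran in opposite directions between microglia, macrophages and monocytes in the results that follow. Both were lower in dendritic cells than in macrophages. The motifs were GAGGAA (a PU.1 core), TTGCNNAA (C/EBP), TGANTCA (AP-1), the interferon-stimulated response element and TTCNNNGAA (a STAT site), on both strands.
C1qb, chr4:136886201-136886450: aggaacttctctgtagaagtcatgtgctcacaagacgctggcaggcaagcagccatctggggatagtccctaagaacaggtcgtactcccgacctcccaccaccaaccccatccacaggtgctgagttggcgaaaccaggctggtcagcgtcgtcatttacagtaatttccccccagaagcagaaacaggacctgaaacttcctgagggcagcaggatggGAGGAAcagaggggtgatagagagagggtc
C1qc, chr4:136892915-136893164: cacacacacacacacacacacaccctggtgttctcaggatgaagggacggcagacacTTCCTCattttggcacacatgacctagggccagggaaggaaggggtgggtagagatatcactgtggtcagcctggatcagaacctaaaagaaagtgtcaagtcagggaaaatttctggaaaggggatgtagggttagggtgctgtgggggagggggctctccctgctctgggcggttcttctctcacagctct
C3, chr17:57228137-57228386: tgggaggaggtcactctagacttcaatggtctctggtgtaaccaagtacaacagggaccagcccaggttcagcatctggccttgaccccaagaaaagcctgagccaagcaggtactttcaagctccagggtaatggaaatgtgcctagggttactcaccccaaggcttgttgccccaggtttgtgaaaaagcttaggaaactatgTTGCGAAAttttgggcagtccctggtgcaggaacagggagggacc
The C1qb window held GAGGAA at 30 to 25 bases before the start, and the C1qc window held the same core on the other strand, read as TTCCTC, at 193 to 188 bases before the start. The start used for a window is that of the promoter table: the C1qc window overlaps the first bases of the annotated gene span, and most of the C5ar1 window (chr7:16259339-16259588) lies inside the annotated span of C5ar1, so neither is wholly upstream. The C3 window held a C/EBP match, TTGCGAAA, at 45 to 38 bases before the start. C3ar1 held an AP-1 match, TGACTCA, at 22 to 16 bases before its start, and the windows of C5ar1 and Cfp held none of the 5 motifs. Of all 32851 windows of this length, 23.3% held GAGGAA, 9.56% TTGCNNAA, 6.75% TGANTCA, 2.98% the interferon-stimulated response element and 7.02% TTCNNNGAA. A match is a string of letters in these windows, and no binding was measured. In the same annotation the C1q genes lie within 18.72 kb of chromosome 4, with C1qb at chr4:136880126-136886200, C1qc at chr4:136889801-136892936 and C1qa at chr4:136895916-136898844. C4b (chr17:34728139-34743902) and Cfb (chr17:34856374-34862514) lie within 134.4 kb of each other, C3 lies elsewhere on the same chromosome (chr17:57203967-57228136), and the others lie apart (C3ar1 at chr6:122847140-122856157, C5ar1 at chr7:16246743-16259540, Cfp at chrX:20925454-20931555).

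The C1q chains were highest in microglia and stepped down through macrophages and monocytes to dendritic cells. C1qa, which together with its partner chains forms the recognition molecule of the classical pathway, had 2535 to 4889 CPM over the 11 macrophage sums (median 4308) and 8772 to 15213 CPM over the 18 microglia sums (median 10843). In monocytes it had 850 to 1758 CPM (median 1071), and in dendritic cells 444 to 1371 CPM (median 806). No macrophage sum reached a microglia sum or came down to a monocyte sum, and dendritic cells overlapped with monocytes alone. C1qb averaged 3689 ± 781 CPM in macrophages (SD, n = 11), 1405 ± 347 CPM in monocytes (n = 11), 732 ± 258 CPM in dendritic cells (n = 10) and 9606 ± 1086 CPM in microglia (n = 18). C1qc averaged 2414 ± 555, 786 ± 205, 524 ± 164 and 7521 ± 814 CPM in the same classes and order. The same pairs of classes were apart for each of the 3 chains. How many of all genes have ranges that are apart between classes was not counted, here or for the genes that follow. Over all 51 sums, Pearson's r on log2(CPM + 1) was 0.997 between C1qa and C1qc and 0.991 between C1qa and C1qb, and among 7444 genes the next most alike to C1qa were Trem2 (0.972), a lipid receptor of microglia and macrophages, and Ctsl (0.971), a lysosomal protease. These values describe sums that share pools, samples and classes. In a sum, fewer expressing cells and less RNA per cell cannot be told apart except where shares of cells are given.

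**Figure D1:**
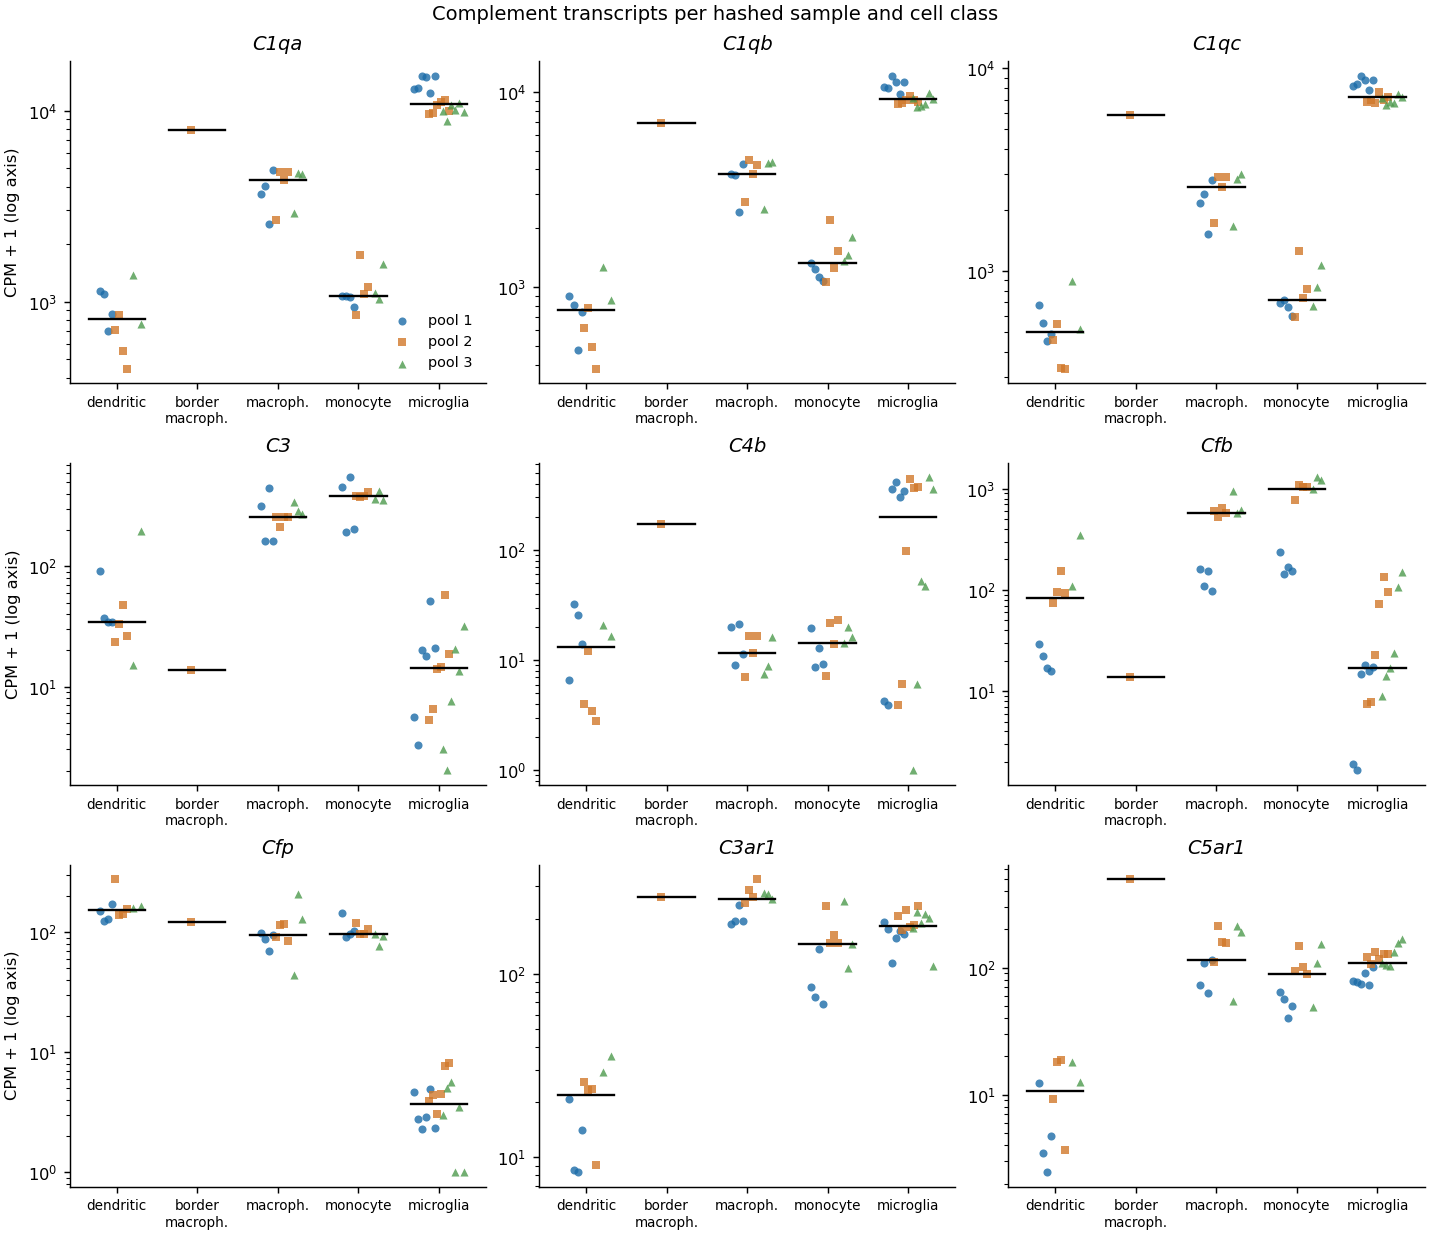
CPM + 1 on a log axis for each of the 9 genes, 1 point per hashed sample in each class, with the pool given by colour and shape and the median by a black bar. C1q falls from microglia to dendritic cells, C3, Cfb and Cfp are low in microglia, and C4b in microglia splits into sums under 6 CPM and sums above 40 CPM.

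A background level was read from NK and T cells, which should lack C1q and carried 403, 464 and 656 CPM of C1qa in pools 1, 2 and 3. Dendritic cells stood at 1.36 to 2.30 times that level over the pools, monocytes at 2.19 to 2.6 times, macrophages at 6.77 to 9.87 times and microglia at 15.3 to 35 times. With every cell thinned to 2000 UMIs, 23.6% of dendritic cells, 35.4% of monocytes, 74.4% of macrophages and 99.96% of microglia held a C1qa UMI, against 17.7% of NK cells and 46.6% of the 73 T cells (95% exact interval 34.8 to 58.6, counting error only). The shares of dendritic cells and monocytes lay between those of NK and T cells and, as shares, are not set apart from background, whereas those of macrophages and microglia were above both. The 2 monocyte clusters differed in C1qa, with 1019.9 to 1959 CPM in the Ly6c2 cluster (mean 1351, 11 sums) and 87.7 to 592 CPM in the Ifitm6 and Ace cluster (mean 304, 8 sums), against 403 to 656 CPM in NK and T cells over the pools. The first range lies above that level and the second runs from below it to within it. Unthinned, the shares were 50.8% (median 8632 UMIs per cell), 55.0% (7152), 84.6% (10423) and 99.9% (4751) in the same 4 classes, and 29.2% (2892) and 64.2% (5735) in NK and T cells. The thinning left out 27 dendritic cells, 61 monocytes, 109 macrophages, 467 microglia, 105 NK cells and 8 T cells with fewer UMIs.

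Set within hashed samples, macrophages had less C1q and C4b RNA and more C3, Cfb, Cfp and C3ar1 RNA than microglia. Counts were tested with edgeR's quasi-likelihood test with the hashed sample as a block, and adjusted p-values (Benjamini-Hochberg) run over all 11992 genes tested. All 9 genes passed at 0.05, 5 higher and 4 lower, where 73% of all genes passed, 34.4% higher and 38.6% lower, so the count itself does not set them apart. C1qa was lower by a log2 fold change of -1.29 ± 0.13 (SE, adjusted p = 5.13e-12), C1qb by -1.14 ± 0.12 and C1qc by -1.39 ± 0.12, each in 11 of 11 samples. Against monocytes the same macrophages were higher, by 1.65 ± 0.13 for C1qa (adjusted p = 3.93e-14), 1.26 ± 0.12 for C1qb and 1.49 ± 0.12 for C1qc, again in 11 of 11 samples. In that comparison 7 of the 9 genes passed, 5 higher and 2 lower, where 48.4% of all genes passed, 23.9% higher and 24.4% lower. Over all 10 pairs of the 5 classes 64 of 90 tests passed. In the 6 pairs not described in full these were 7 of 9 for monocytes against microglia (76.1% of all genes), 9 of 9 for dendritic cells against microglia (67.8%), 8 of 9 for dendritic cells against monocytes (44%), 2 of 9 for border macrophages against macrophages (5.31%), 5 of 9 for border macrophages against monocytes (8.32%) and 6 of 9 for dendritic cells against border macrophages (8.86%).

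Of the 5 classes, only border macrophages and microglia had a share of cells with C4b above those of both NK and T cells. C4b is the C4 gene of the mouse that acts in the classical pathway. In the samples that held both classes it had 5.97 to 20.3 CPM in macrophages and 45.9 to 454 CPM in microglia, with no overlap and macrophages lower in 11 of 11 samples (log2 fold change -4.40 ± 0.19, adjusted p = 1.27e-24). Monocytes had 6.16 to 22.1 CPM and dendritic cells 1.80 to 31.2 CPM. Neither macrophages against monocytes (-0.27 ± 0.23, adjusted p = 0.355) nor dendritic cells against macrophages (-0.11 ± 0.34, adjusted p = 0.811) passed, although dendritic cells passed as lower within pool 2 (-1.47, adjusted p = 0.00217). NK and T cells had 2.30 to 7.42 CPM, and 2.15% of macrophages and 2.29% of monocytes held a C4b UMI at 2000 UMIs, against 0.369% of NK cells and 2.74% of T cells, so these shares are at background. Border macrophages were at 36.4% and microglia at 16.9%. Unthinned, the shares were 8.39%, 6.35%, 0.927% and 4.94% in macrophages, monocytes, NK and T cells, 49.6% in border macrophages and 24.9% in microglia.

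C4b also differed between microglia of different hashtags. In pool 1 microglia of hashtags 1 to 6 had 3.23, 2.91, 358, 412, 302 and 345 CPM. In pool 2 they had 2.93, 5.12, 97.8, 438, 360 and 375 CPM, and in pool 3 they had 0, 5.05, 51.3, 45.9, 454 and 357 CPM. Every value under hashtags 1 and 2 was at or below 5.12 CPM, and every value under hashtags 3 to 6 was at or above 45.9 CPM, with the lowest of those under hashtags 3 and 4 of pool 3 and hashtag 3 of pool 2. How many of all genes are likewise apart between these hashtags was not counted. The hashtags 1 and 2 are also those whose cells were nearly all microglia. A test of any difference between hashtag numbers, with pool as a block, called C4b (adjusted p = 2.16e-06 over 10739 genes).

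**Figure D2:**
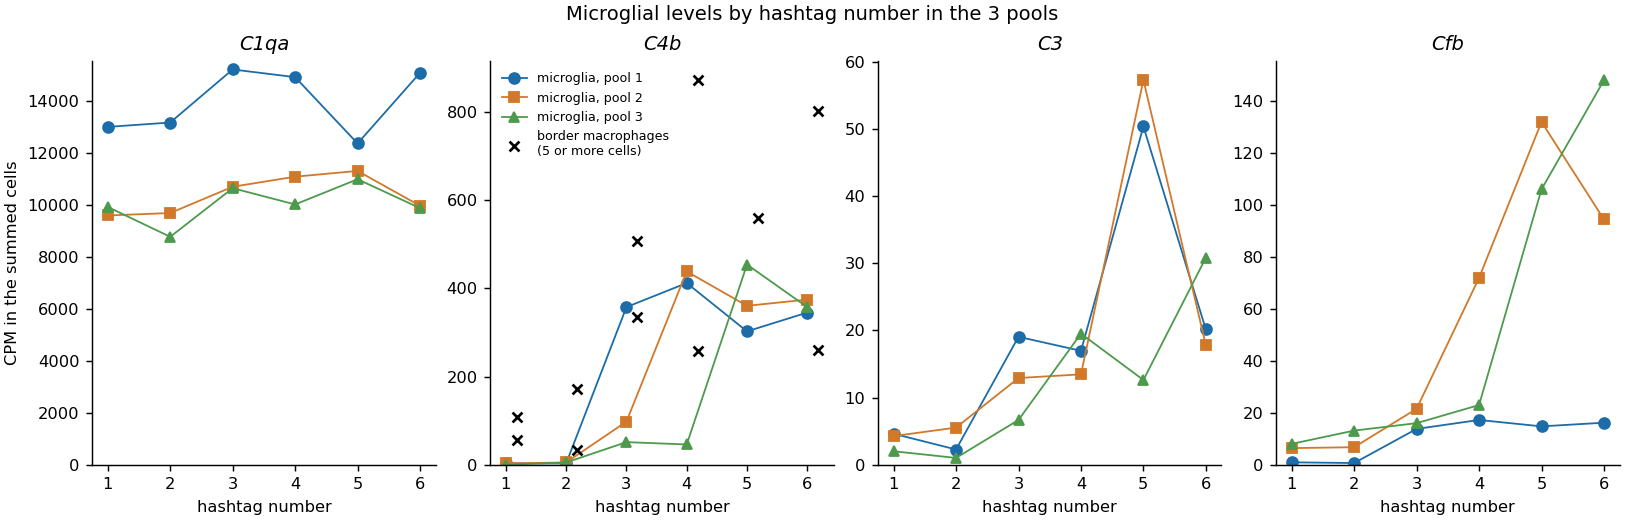
CPM of C1qa, C4b, C3 and Cfb in microglia by hashtag number, with 1 line per pool, and crosses for border macrophages of hashed samples with at least 5 such cells. C4b is near 0 under hashtags 1 and 2 and above 40 CPM under hashtags 3 to 6 in every pool, while C1qa stays between 8772 and 15213 CPM.

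The step in C4b was seen inside clusters and in their mix. In the 3 microglial clusters led by Tmx4, Fcrls and Arl4d (clusters 1, 2 and 4), C4b had 0 to 6.49 CPM under hashtags 1 and 2 and 0 to 211 CPM under hashtags 3 to 6, with the values of 0 there under hashtags 3 and 4. In the cluster led by Egr3 and Tnf it had 113 to 543 CPM under hashtags 3 to 6, in the cluster led by H2-Oa 75.8 to 591 CPM (23.3 CPM in its single sum under hashtags 1 and 2), and in the dividing cluster led by Ube2c 130 to 489 CPM. The Egr3 and Tnf cluster made up 0 to 1.96% of microglia under hashtags 1 and 2 and 14.4 to 51.0% under hashtags 3 to 6. The summed marker lists of other classes differed with the hashtag too: the monocyte list (14 genes) summed to 28.1 to 84.4 CPM in microglia under hashtags 1 and 2 and 90.8 to 462 CPM under hashtags 3 to 6, and the macrophage list (12 genes) to 77.0 to 185 CPM and 222 to 1778 CPM. The members of the monocyte list did not move alike: Plac8 had 10.03 to 28.1 CPM under hashtags 1 and 2 and 40.4 to 266 CPM under hashtags 3 to 6, whereas Ly6c2, Hp and Chil3 overlapped between them. Ear2 was at 0 in every sum of hashtags 1, 4 and 5, and Ace in every sum of hashtag 1. The dendritic list ran the other way, with 357 to 489.6 CPM under hashtags 1 and 2 and 117 to 290.4 CPM under hashtags 3 to 6, and 1 to 3 of its 12 genes (among Clec9a, Xcr1, Clec10a, Dpp4 and Cd209a) were at 0 in every sum of each hashtag but 3. The part of any of these in the C4b values was not tested. C4b itself was lower in macrophages than in microglia of every sample that held both. Over the 51 sums the genes most alike to C4b were Cst7 (r = 0.837), an inhibitor of lysosomal proteases, and Cdk1 (0.834), a kinase of the cell cycle.

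Of the other members in microglia, C3 (adjusted p = 3.23e-06), Cfb (1.11e-05) and C5ar1 (0.0479) also passed the test between hashtag numbers, so that 4 of 9 did where 26.4% of all genes did. C3 had 1.01 to 5.53 CPM under hashtags 1 and 2 and 6.66 to 57.3 CPM under hashtags 3 to 6, so the 2 sets did not overlap. Cfb had 0.647 to 13.1 CPM under hashtags 1 and 2 and 13.8 to 148 CPM under hashtags 3 to 6, apart by less than 1 CPM. How many of all genes are apart between these 2 sets of hashtags was not counted. The microglial levels of C3 and Cfb are small beside those of macrophages and monocytes of the same samples. The marker lists of those classes summed to more in microglia under hashtags 3 to 6, as given above, and their part in these differences was not tested. C5ar1 overlapped between all hashtag numbers (71.6 to 166 CPM over the 18 sums), and its call was lost without any 1 of the pools (adjusted p = 0.123 to 0.275). For C1qa (adjusted p = 0.0846), C1qb (0.300), C1qc (0.328), Cfp (0.446) and C3ar1 (0.983) no difference was called. DESeq2 called the 3 C1q chains as well (C1qa adjusted p = 0.00119, C1qb 0.0289 and C1qc 0.0111), and C1qa spanned 12365 to 15213 CPM over the hashtags of pool 1, 9593 to 11307 CPM in pool 2 and 8772 to 10988 CPM in pool 3.

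C3, the central protein cleaved by every pathway, and Cfb, the enzyme part of the alternative pathway, were genes of monocytes and macrophages. C3 had 161 to 452 CPM in macrophages (median 257), 193 to 548 CPM in monocytes (median 383), 14.1 to 197 CPM in dendritic cells (median 33.6) and 1.01 to 57.3 CPM in microglia (median 13.2). Neither macrophages nor monocytes overlapped with microglia. Macrophages were higher than microglia by 3.75 ± 0.20 (adjusted p = 7.94e-21) and dendritic cells were lower than macrophages by -2.61 ± 0.23 (adjusted p = 2.00e-13), in every sample that held both. Monocytes were higher than microglia by 4.38. At 2000 UMIs 36.1% of macrophages, 45.9% of monocytes, 4.75% of dendritic cells and 1.82% of microglia held a C3 UMI, against 0.185% of NK cells and 5.48% of T cells, so the share of microglia lay between those of NK and T cells and that of dendritic cells was above NK cells and near T cells. Unthinned, these shares were 77.3%, 77.5%, 15.2%, 5.40%, 0.773% and 12.3% in the same order. In CPM dendritic cells stood at 2.196 to 8.41 times NK and T cells over the pools, with 67.0 CPM in the Ccl17 and Cd209a cluster (mean of 10 sums) and 10.3 CPM in the Ccr7 cluster (7 sums). The genes most alike to C3 over the 51 sums were Cstb (r = 0.965), a cathepsin inhibitor, and Hpse (0.946), heparanase.

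Cfb followed C3 over the sums (r = 0.859) with a far wider spread. It had 96.5 to 948 CPM in macrophages (median 572), 143 to 1291 CPM in monocytes (median 989), 15 to 351 CPM in dendritic cells (median 82.4) and 0.647 to 148 CPM in microglia (median 16.1). The spread lay between pools: macrophages had 96.5 to 160 CPM in pool 1, 521 to 648 CPM in pool 2 and 572 to 948 CPM in pool 3, and monocytes had 143 to 237, 765 to 1096 and 989 to 1291 CPM. The file header of pool 1 names another software version than those of pools 2 and 3, and its gene list holds Gm20547, at 0 UMIs in every class, which the lists of pools 2 and 3 lack. The part of that in the pool 1 level was not tested. Within samples macrophages were higher than microglia by 3.35 ± 0.18 (adjusted p = 1.77e-20), with close values inside each pool (3.37, 3.35 and 3.38), and dendritic cells were lower than macrophages by -2.42 ± 0.20 (adjusted p = 8.54e-14). The monocyte difference from microglia was 4.11.

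Macrophages had less C3 and Cfb than monocytes of the same sample, in 11 of 11 samples for each (C3 -0.63 ± 0.16, adjusted p = 0.00144, and Cfb -0.75 ± 0.16, adjusted p = 1.01e-04). These calls leaned on how the classes were drawn and paired: at a finer clustering (Leiden resolution 2) the values were -0.23 (adjusted p = 0.306) for C3 and -0.12 (0.547) for Cfb, and without the sample block neither passed (0.165 and 0.25). Within pools 1, 2 and 3 C3 gave -0.50, -0.80 and -0.42 (adjusted p = 0.557 in pool 3) and Cfb -0.58, -0.84 and -0.72 (0.311 in pool 3), and without pool 2 C3 had an adjusted p of 0.0503. Inside the classes the 2 clusters of each differed. Macrophages of the Gpnmb and Fabp5 cluster averaged 332 CPM of C3 and 574 CPM of Cfb (11 sums), and those of the Ms4a7 and Clec4n cluster 236 and 356 CPM (10 sums). Monocytes of the Ifitm6 and Ace cluster averaged 222 CPM of C3 and 176 CPM of Cfb (8 sums), and those of the Ly6c2 cluster 401 and 844 CPM (11 sums). These are descriptions without a test, since the clusters were drawn from the same cells.

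**Figure D3:**
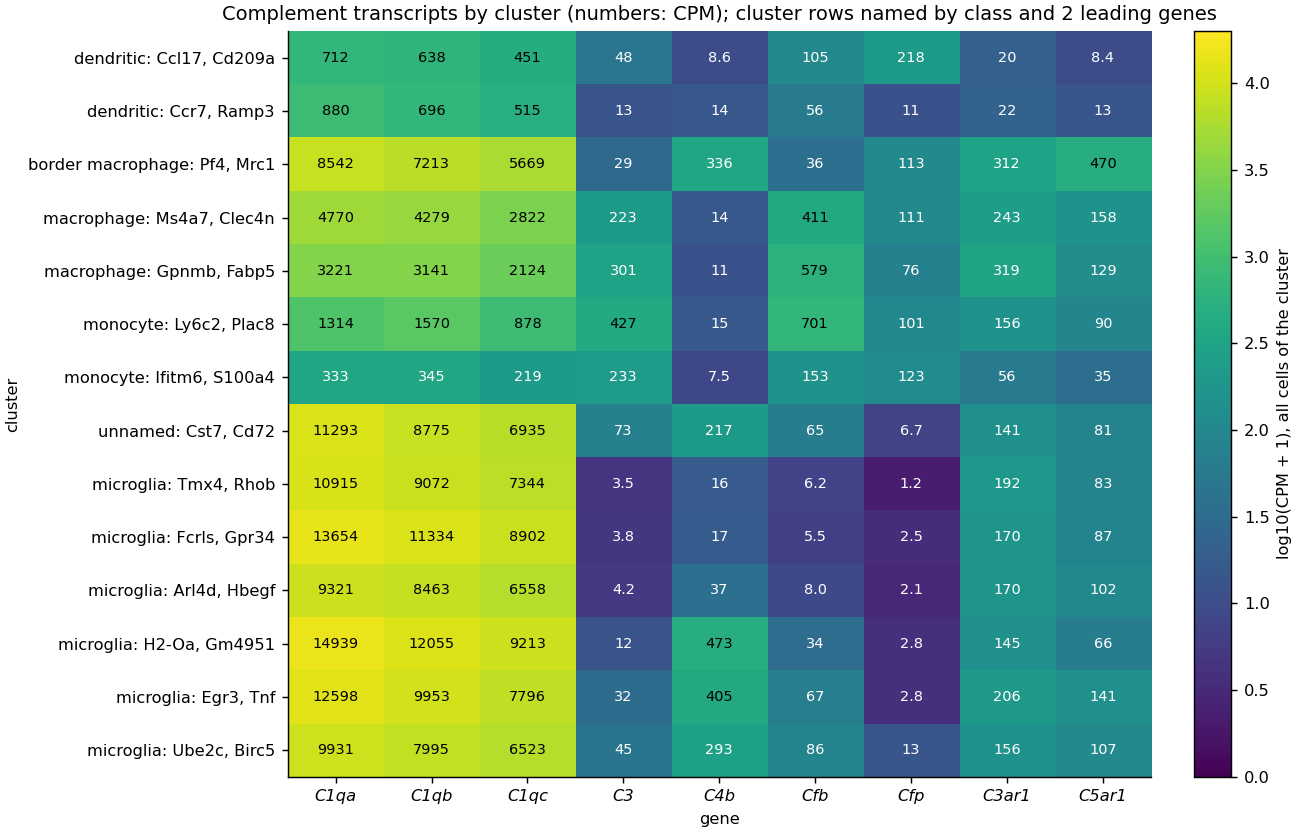
Heat map of the 9 genes over the named clusters and the unnamed cluster led by Cst7, as CPM over all cells of a cluster, with the leading genes of each cluster beside its class. C4b is high in the microglial clusters led by H2-Oa, by Egr3 and by Ube2c and low in the other microglial clusters, and C3 and Cfb are highest in the monocyte cluster led by Ly6c2 and next in the macrophage cluster led by Gpnmb.

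Cfp, properdin, stood above background in 4 of the 5 classes and not in microglia. It had 42.8 to 207 CPM in macrophages (median 94.1), 75.8 to 143 CPM in monocytes (median 96.2), 122 to 276 CPM in dendritic cells (median 153) and 0 to 7.06 CPM in microglia (median 2.73). No sum of the other classes overlapped with microglia, whose level was 0.264 to 0.436 times that of NK and T cells in the same pools and is read as background. Macrophages were higher than microglia by 5.27 ± 0.23 (adjusted p = 2.60e-24) and dendritic cells higher than macrophages by 0.72 ± 0.16 (adjusted p = 2.55e-04) in 10 of 10 samples, a difference that was 0.65 (adjusted p = 0.325) within pool 3. Macrophages and monocytes were not called apart (-0.18 ± 0.15, adjusted p = 0.341). Among dendritic cells the level lay in 1 of the 2 clusters: cells led by Ccr7 averaged 9.26 ± 14.7 CPM (SD, n = 7) and cells led by Ccl17 and Cd209a 210.3 ± 48.5 CPM (n = 10). Over the sums Cfp was most like Anxa1 (r = 0.949), annexin A1, and ran against C1qa (r = -0.834).

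Dendritic cells had less of 7 of the 9 genes than macrophages and more of Cfp alone, so that 8 of 9 passed where 51.1% of all genes did (24.1% higher, 27% lower). Their C1qa was lower by -2.26 ± 0.14 (adjusted p = 6.99e-18), C1qb by -2.35 ± 0.13 and C1qc by -2.20 ± 0.13. The receptors C3ar1 (-3.87 ± 0.18, adjusted p = 2.09e-22) and C5ar1 (-3.78 ± 0.21, adjusted p = 1.63e-19) had the largest differences of the 9 in that comparison. All these were lower in 10 of 10 samples.

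**Figure D4:**
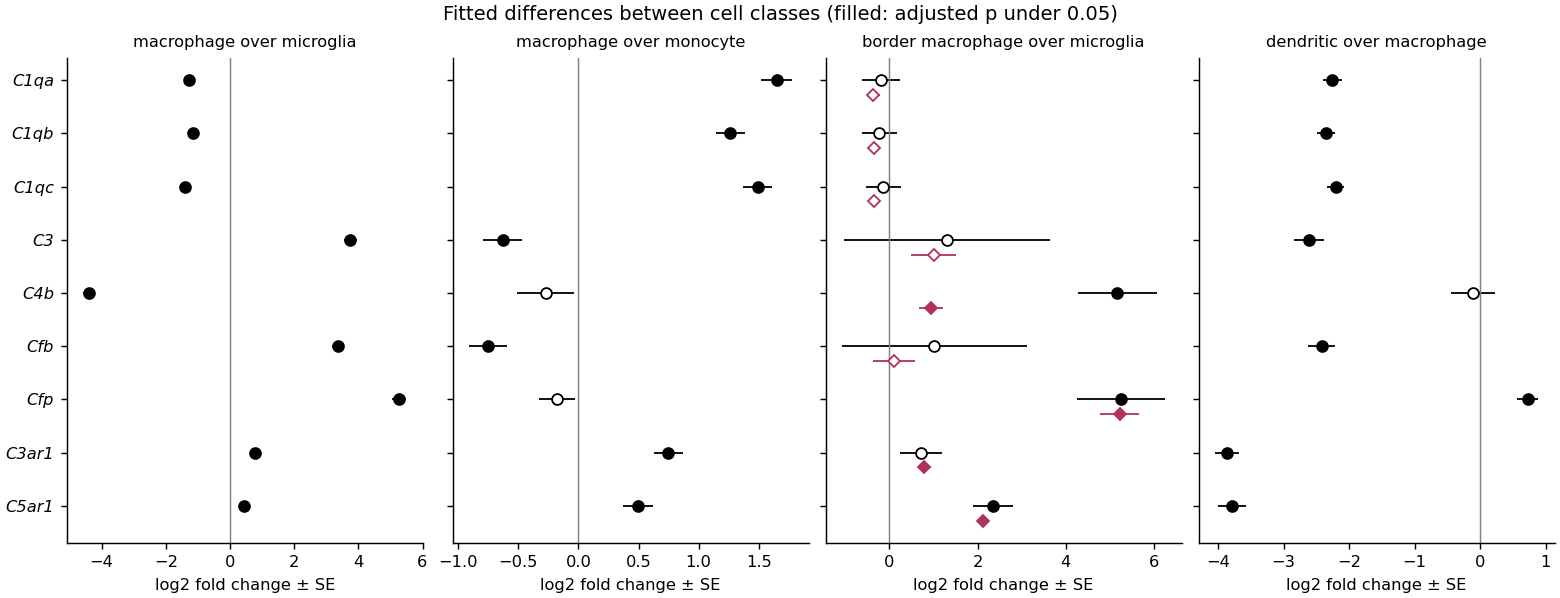
Log2 fold change with its standard error for each gene in 4 comparisons between classes, filled where the adjusted p was under 0.05. In the border macrophage panel the circles rest on 1 summed sample and the magenta diamonds on counts summed per pool. C1q and C4b lie left of 0 and C3, Cfb and Cfp right of it for macrophages against microglia.

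C3ar1, the receptor of C3a, had overlapping levels in macrophages, monocytes and microglia and was scarce in dendritic cells. It had 185 to 328 CPM in macrophages (median 255), 67.8 to 249 CPM in monocytes (median 144), 7.30 to 34.7 CPM in dendritic cells (median 21.0) and 109 to 233 CPM in microglia (median 182). Only dendritic cells lay apart from all the others. Macrophages were higher than microglia by 0.79 ± 0.12 (adjusted p = 7.30e-08) and higher than monocytes by 0.75 ± 0.12 (adjusted p = 9.40e-07), in 11 of 11 samples each. Within pool 3 alone the difference from monocytes was 0.66 (adjusted p = 0.133). Monocytes and microglia were not called apart (0.04 ± 0.12, adjusted p = 0.778).

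C5ar1, the receptor of C5a, had 53.5 to 212 CPM in macrophages (median 114), 39.2 to 153 CPM in monocytes (median 87.8), 1.46 to 17.8 CPM in dendritic cells (median 9.77) and 71.6 to 166 CPM in microglia (median 107). Macrophages, monocytes and microglia overlapped. Macrophages were called higher than microglia by 0.44 ± 0.12 (adjusted p = 0.00118), with a higher CPM in 7 of 11 samples. The call was lost with DESeq2 (0.30, adjusted p = 0.0841), with scaling by library size alone (0.14, adjusted p = 0.277), without pool 2 (0.27, adjusted p = 0.0828) and within pool 3 (0.08, adjusted p = 0.853). Against monocytes macrophages were higher by 0.49 ± 0.12 in 11 of 11 samples (adjusted p = 8.95e-04, 0.0603 without the sample block, 0.0671 within pool 2 and 0.355 within pool 3). Monocytes and microglia were not called apart (-0.05 ± 0.13, adjusted p = 0.72). NK and T cells had 4.22 to 20 CPM of C3ar1 and 2.53 to 11.1 CPM of C5ar1, and dendritic cells were at 1.11 to 2.77 and 1.11 to 1.93 times those levels. Over the sums C3ar1 and C5ar1 were alike (r = 0.927), and Dgkz, a diacylglycerol kinase, was the gene most like C3ar1 (0.943).

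Border macrophages are the macrophages of meninges and vessels, marked here by Mrc1, Cd163 and Lyve1. Their CPM of C1q was below that of microglia of the same sample, and they had more C5ar1 and Cfp. A single hashed sample (hashtag 2 of pool 2) held 20 or more of them, so the test rests on 1 sum that is assumed to vary like those of the other classes. That sum had 495 CPM of C5ar1, against 105 CPM in microglia of the sample (log2 fold change 2.35 ± 0.44, adjusted p = 2.76e-04). Cfp had 121 against 3.37 CPM (5.26 ± 1.0, adjusted p = 3.24e-04), and C4b had 171 against 5.12 CPM (5.17 ± 0.89, adjusted p = 6.66e-05). These 3 of 9 genes were called, where 4.4% of all genes were (2.87% higher, 1.53% lower). C3ar1 had 260.3 against 173 CPM (0.71 ± 0.48, adjusted p = 0.535), and C1qa had 7872 against 9687 CPM (-0.18 ± 0.42, adjusted p = 0.908).

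With sums of at least 5 cells, a limit added after the data were seen, 11 samples gave both classes. C5ar1 had 74.5 to 1170 CPM in border macrophages (median 445) and 71.6 to 132 CPM in microglia (median 99.6), higher in 11 of 11 samples (1.93, adjusted p = 5.01e-10). C3ar1 had 149 to 681 CPM and 114 to 233 CPM, also higher in 11 of 11 (0.63, adjusted p = 0.0235), and Cfp was higher in 9 of 11 (5.12, adjusted p = 1.18e-12), with 0 UMIs in the other two. C1qa had 6850 to 11987 CPM in border macrophages and 9593 to 15213 CPM in microglia, lower in 11 of 11 samples (-0.58, adjusted p = 0.00644), with C1qb (-0.59) and C1qc (-0.58) the same. In this run 3 genes passed as higher and 3 as lower, where 6.63% and 19.3% of all genes did. Counts summed per pool, also added, called Cfp (5.22), C5ar1 (2.12), C4b (0.94, adjusted p = 0.0151) and C3ar1 (0.80, adjusted p = 4.89e-04) as higher, where 7.84% of genes were higher and 8.17% lower.

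Border macrophage C4b was set beside that of microglia by hashtag. Under hashtags 1 and 2, 4 samples held at least 5 border macrophages, with 55.6, 32.7, 107.8 and 171 CPM from 2, 1, 7 and 27 UMIs, against 3.23, 2.91, 2.93 and 5.12 CPM in the microglia of the same samples. Under hashtags 3 to 6, 7 samples gave 335, 872, 559, 259.96, 508, 257 and 803 CPM in border macrophages from 8 to 33 UMIs, against 358, 412, 302, 345, 97.8, 438 and 375 CPM in microglia. All 4 of the first samples and 4 of these 7 were higher in border macrophages. Over the 11 samples border macrophages were higher in 8 (0.78, adjusted p = 0.0895). Without the sample block the fit on 1 sum gave -0.30, and that fit sets this sum against microglia of all hashtags. The border macrophage sums came from 5 cells upward, and 1 or 2 UMIs give little precision.

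Surface tags gave a second axis within samples. Among monocytes and macrophages, the cells in the highest 25% of the Ly-6C tag, a protein of young monocytes, were set against those in the lowest 25% of the same sample (11 samples). C1qa had 423 to 2418 CPM in Ly-6C-high cells (median 765) and 2841 to 5914 CPM in Ly-6C-low cells (median 4917), lower in 11 of 11 samples (-2.07 ± 0.20, adjusted p = 9.72e-08), and C1qb (-1.58) and C1qc (-1.84) were lower as well. C3 averaged 341 ± 95.4 CPM in Ly-6C-high cells and 271 ± 87.3 CPM in Ly-6C-low cells (SD, n = 11 each), higher in 9 of 11 (0.40 ± 0.08, adjusted p = 2.19e-04), and Cfb averaged 691 and 402 CPM, higher in 10 of 11 (0.79 ± 0.12, adjusted p = 2.65e-05). C5ar1 was lower in 10 of 11 samples (-0.51 ± 0.12, adjusted p = 0.00185). In all 6 of 9 passed, 2 higher and 4 lower, where 49.2% of all genes passed (26.1% higher, 23.1% lower). Without the sample block C3 (adjusted p = 0.0693), Cfb (0.122) and C5ar1 (0.156) did not pass. Within pools 1, 2 and 3 C1qa gave -2.77, -1.54 and -1.90, C3 0.13 (adjusted p = 0.279), 0.43 and 0.71 (0.07), Cfb 0.50, 0.80 and 1.06 (0.0816), and C5ar1 -0.98, -0.19 (0.225) and -0.58 (0.317).

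The gates differ in make-up, since monocytes were 81.6% of the Ly-6C-high cells of the median sample and 20.6% of the Ly-6C-low cells. With gates drawn within macrophages alone (10 samples), C1qa (-0.94, adjusted p = 4.27e-07), C1qb (-0.65), C1qc (-0.84), Cfb (0.79, adjusted p = 6.88e-08) and Cfp (-0.54, adjusted p = 7.34e-04) passed, and C3 (0.16, adjusted p = 0.232) and C5ar1 (-0.19, adjusted p = 0.156) did not.

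**Figure D5:**
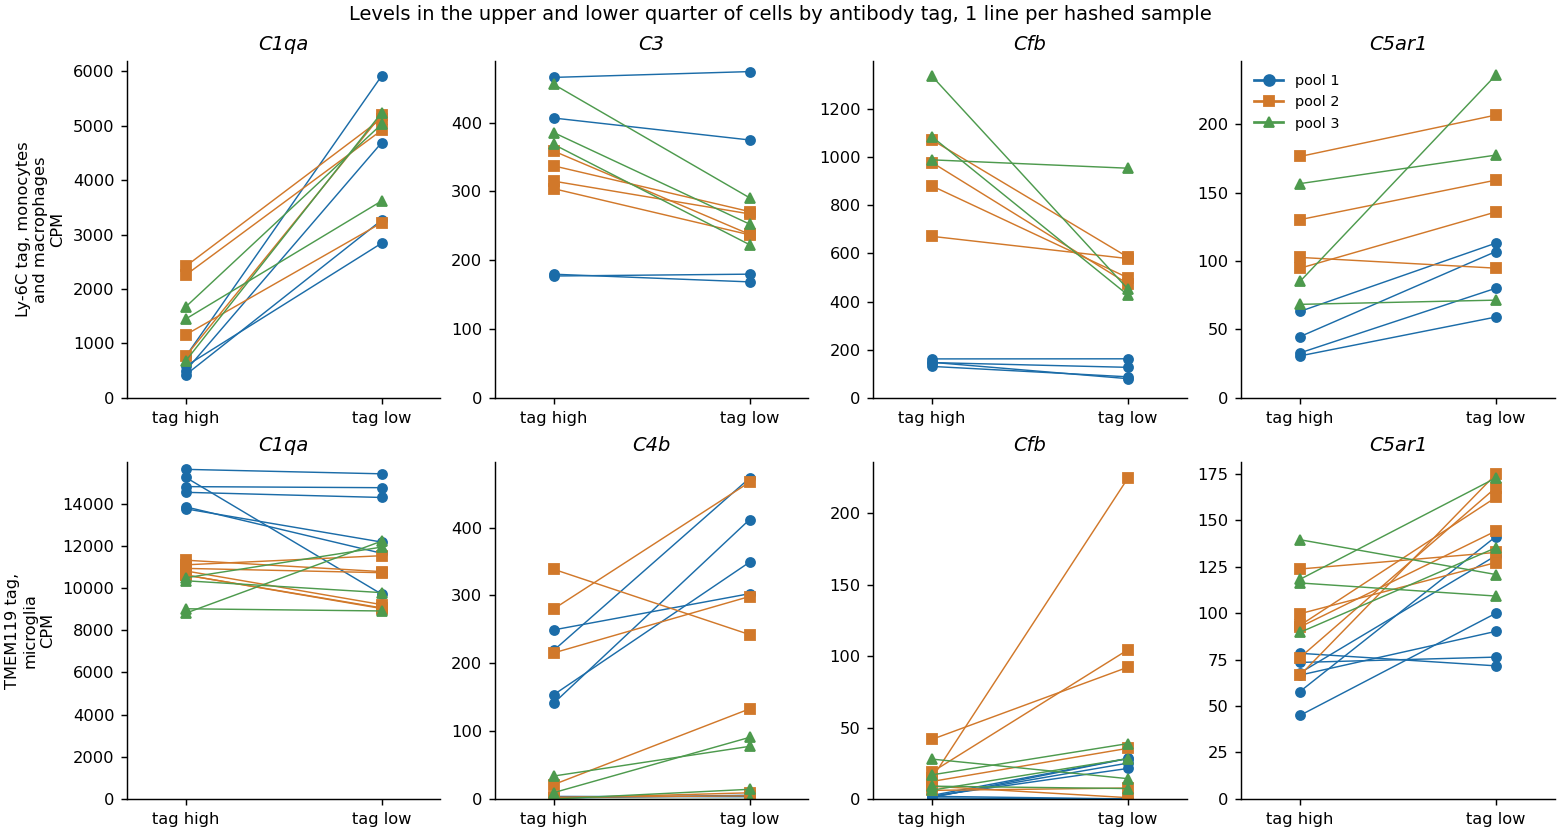
CPM in the high and low 25% of the Ly-6C tag among monocytes and macrophages (upper row) and of the TMEM119 tag among microglia (lower row), with 1 line per hashed sample. C1qa is lower in Ly-6C-high cells in every sample, and Cfb and C5ar1 are lower in TMEM119-high microglia in 11 and 13 of 16 samples.

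Among microglia, the highest 25% of the TMEM119 tag, a microglial surface protein, were set against the lowest 25% (16 samples). Cfb averaged 10.7 ± 11.3 CPM in TMEM119-high and 41.1 ± 57.4 CPM in TMEM119-low microglia (SD, n = 16 each; -2.16 ± 0.32, adjusted p = 5.62e-06), and C4b 104 ± 121 and 180.1 ± 180 CPM (-1.22 ± 0.20, adjusted p = 3.01e-05). C5ar1 averaged 87.8 ± 26.3 and 128.5 ± 32.6 CPM (-0.79 ± 0.12, adjusted p = 1.03e-05), and C3ar1 169 ± 39.6 and 211 ± 47.8 CPM (-0.53 ± 0.10, adjusted p = 7.99e-05). As given above, the share of all microglia with a Cfb UMI lay between those of NK and T cells. The gates overlapped over samples. Within samples Cfb was lower in 11 of 16, and C4b, C5ar1 and C3ar1 were each lower in 13 of 16. These 4 of the 7 genes that passed the count filter were lower and none was higher, where 50.8% of all genes passed (25.3% higher, 25.4% lower). The C4b call was lost with gates on the raw tag count (-0.21, adjusted p = 0.147) and without the sample block (-1.0, adjusted p = 0.241), and no member passed within pool 3, where C5ar1 was at -0.39 (adjusted p = 0.312) and C3ar1 at -0.34 (0.372). C1qa averaged 11988 and 11322 CPM in the high and low gates, with a fitted difference of -0.10 ± 0.06 (adjusted p = 0.181). In CPM C1qa, C1qb and C1qc were higher in TMEM119-high cells in 13, 14 and 14 of 16 samples, against the sign of the fit, and the fitted sign of all 3 turned with scaling by library size alone (0.08, 0.11 and 0.14) and with gates on the raw tag count. C3 and Cfp did not pass the filter. The median cell had 4033 UMIs and 1.63% mitochondrial UMIs in the high gate, and 5976 UMIs and 2.21% in the low gate, and the part of that in these differences was not tested.

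Of 44 other complement genes listed, 43 were found and 17 were abundant enough for the class tests. Between macrophages and microglia 5 were higher and 9 lower, where 34.4% of all genes were higher and 38.6% lower, with a median of -0.24 against -0.07 over all genes, so their 14 of 17 is near the 73% of all genes. Cd93, a receptor once described as binding C1q, was higher by 6.32 ± 0.21. Serping1, the inhibitor of C1 proteases, was lower by -3.35 and C2, the partner of C4, by -2.78. Itgam and Itgb2, the chains of the receptor of C3 fragments (CR3), went apart: Itgam was lower by -1.06 ± 0.09 and Itgb2 higher by 0.51 ± 0.07. Between macrophages and monocytes 6 were higher and 6 lower (48.4% of all genes passed), among them Itgax (1.33), the alpha chain of CR4, and Serping1 (-1.33). Between dendritic cells and macrophages 3 were higher and 8 lower (51.1% of all genes passed), with Cd93 at -4.86, Itgam at -1.49 and Itgb2 at -1.21. Of 12 tested in microglia by hashtag number 9 passed, where 26.4% of all genes did. Since the cells were selected as CD11b+, the level of Itgam is bounded by that selection.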

How the data were processed

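The matrices hold UMI counts per gene or antibody tag and barcode, as deposited by the authors without normalization, and only for barcodes kept by their cell filter. Per the submitters' processing notes, reads were handled with bcl2fastq 2.20.0.422 and with Cell Ranger 3.0.1 and 4.0.0 on the mm10 build, and Seurat 3 is also listed there, with no role given. The file headers give 3.1.0 for pool 1 and 4.0.0 for the other two. Barcodes with at least 200 genes, 500 UMIs, under 10% mitochondrial UMIs and a hashtag at 80% or more of hashtag counts were clustered without complement genes (scanpy 1.11.5, leidenalg 0.10.2, 30 principal components, 15 neighbours, resolution 1, 22157 cells). Clusters were named from marker lists by a score whose form was settled after the first names were seen. Clusters with a median Scrublet score above 0.2 (940 cells) were set aside as doublets and 768 cells stayed unnamed. Scrublet's own caller had marked 0 cells in pool 1 and 7 in pool 3.

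Counts were summed per class and hashed sample and tested in 1 fit over 51 sums with edgeR 4.0.16 in R 4.3.3 (TMM scaling, the quasi-likelihood test on genes kept by filterByExpr, a block for each hashed sample, threshold 0.05). The test adjusts by Benjamini-Hochberg over all genes. Every adjusted p in the text is from that test unless DESeq2 1.42.0 is named, and fold changes are log2. The block follows from the design, since the classes are separate cells of the same hashed sample. Deviations from class means were correlated over 7444 genes between classes of a sample. The medians were 0.455 for macrophages and microglia, 0.598 for macrophages and monocytes and 0.402 for dendritic cells and macrophages. The lowest value was 0.189. Between different hashtags of the same pool the medians for these pairs were 0.299, 0.303 and 0.268. Tag gates used centred log ratios. Between any pair of pools the chi-square of the counts per degree of freedom was 108 or more, so none repeats another. Named genes beyond the 9 are those most alike over the sums and the largest called changes of the complement list. The members and lists were chosen with earlier results of these data known. The tests were tried on simulated counts.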

Additional observations from a re-analysis of the deposited data

Results flagged for a closer look

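Of the 9 genes, dendritic cells gave the only class with 4 to 10 sums, and in 3 of those 9 groups of 10 sums the highest value stood apart from the rest. C3 was 196.7 CPM in dendritic cells of pool 3 hashtag 6, against 90.6 CPM in the next sample. Cfb was 350.9 CPM in the same sample, against 152.4 CPM in the next. Cfp was 276.1 CPM in dendritic cells of pool 2 hashtag 3, against 172.2 CPM in the next. By this measure chance sets apart about 1 in 20 groups, and no cause was tested.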

How the results depend on the processing

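Of 904 values of the 9 genes under other settings, 814 kept their direction and side of the threshold. Of the rest, 38 lost their call and 26 gained one. Another 2 changed sign with a call in the main or the other setting, and 24 changed sign with a call in neither. Counts of called genes among the 9 moved by more than 1.5 times in these cases. Macrophages against monocytes gave 7, but 3 within pool 3 and 4 without the replicate block. Border macrophages against microglia gave 3, but 6 with at least 5 cells per sum. Hashtag numbers in microglia gave 4, but 7 with DESeq2. The TMEM119 gates gave 4, but 0 within pool 3, and the Ly-6C gates gave 6, but 3 within pool 3 and 3 without the replicate block. Leaving out 1 pool gave 8 to 9 for macrophages against microglia, 6 to 7 against monocytes, 3 for border macrophages, 8 for dendritic cells, 3 for hashtag numbers, 3 to 4 for TMEM119 and 6 to 7 for Ly-6C. Without the replicate block border macrophage C4b turned to -0.30, and with scaling by library size alone C1qc turned to 0.14 for TMEM119. The unblocked fit sets 1 border sum against microglia of all hashtags, and the cause of either change was not tested. The block changed no call beyond those given here and in the results.

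Library size alone moved the median log2 change of all genes to -0.38 from -0.07 for macrophages against microglia and to 0.17 from 0.02 against monocytes. Its calls were 2714 higher and 6479 lower (TMM 4121 and 4628) against microglia, 4091 and 2134 (2872 and 2930) against monocytes, 321 and 265 (344 and 184) for border macrophages, 3219 and 1090 (1814 and 1823) for TMEM119 and 1618 and 2364 (2025 and 1795) for Ly-6C. For border macrophages RLE gave 434 and 128, and DESeq2 565 and 67. All calls numbered 528 for border macrophages, but 2294 with 5 cells and 1802 per pool. Within pool 3 they were 2753 of 8749 (macrophages against microglia), 596 of 5802 (against monocytes), 947 of 6123 (dendritic cells), 272 of 3637 (TMEM119) and 160 of 3820 (Ly-6C). Without pool 2 they were 3856 (against monocytes), 3611 (dendritic cells), 2007 (TMEM119) and 780 of 2839 (hashtag numbers). Border macrophages gave no sum with 50 cells, under HTODemux, without replicate 2 or within pools 1 and 3. Pool 3, with 1896 assigned cells, limits every within-pool value.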

Other observations

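A cluster of 581 cells led by Cst7 and Cd72 stayed unnamed, because its margin between macrophage and microglia markers was small. It had C4b at 251 ± 33.5 CPM, C3 at 87.5 ± 50.6 CPM and C1qa at 12985 ± 3697 CPM (SD, n = 6 sums). Its 6 sums came from hashtags 3 to 6 of pools 1 and 2, with C4b between 206 and 304 CPM. Over all its cells in pools 1, 2 and 3, C1qa was 14471, 8744 and 4256 CPM, and C3 was 100, 49.8 and 13.2 CPM. C4b was 238, 192 and 199 CPM, and pool 3 held 37 of the cells.

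Neutrophils, 65 cells in all, had 267, 403 and 458 CPM of C5ar1 and 211, 284 and 418 CPM of C3 in pools 1, 2 and 3, with no C4b UMI. C4a, the other C4 gene, was listed in pools 2 and 3 only and held 0 to 10 UMIs in a class and pool.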
